A study of Mus musculus with 10 samples.

Results

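Expression of the subunits of glutamate and GABA receptors was examined in 10 RNAseq libraries of a mouse model of gliomagenesis. The 47 genes were picked by symbol from 23230 features listed, with earlier results of these data known. They are the AMPA (Gria1 to Gria4), kainate (Grik1 to Grik5), NMDA (Grin), delta (Grid), metabotropic glutamate (Grm), GABA-A (Gabr) and GABA-B (Gabbr1 and Gabbr2) subunits. The model starts from cortical astrocytes of C57BL/6 pups at postnatal day 5 that lack p16/p19 (Ink4a/Arf) and were infected with a retrovirus that overexpresses human EGFRvIII, a constitutively active receptor. There were 3 libraries of these astrocytes (AstroEGFR*), 1 for each astrocyte batch, and 3 of the same batches infected with a second viral vector that overexpresses Zfp423 (AstroEGFR* Zfp423). A further 4 libraries were of glioma propagating cells (PT), cultured from tumours that such astrocytes formed in CD1 Nude mice. The Ink4a/Arf deletion and EGFRvIII are thus shared by every group, and all cells were used below passage 10. Batch 1 gave rise to both PT1 and PT4, batch 2 to PT2 and batch 3 to PT3, so PT1 and PT4 are not of separate origin although the tests below treat them as separate libraries.

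AMPA, kainate and NMDA receptors are cation channels opened by glutamate, each built of subunits from its own family, whereas Grm genes encode G protein-coupled glutamate receptors. GABA-A receptors are chloride channels in which alpha, beta and usually gamma subunits combine, and the GABA-B receptor is a G protein-coupled dimer of Gabbr1 and Gabbr2. Astrocytes and oligodendrocyte precursors carry several of these receptors, and AMPA receptors without Gria2, the subunit whose edited form blocks calcium, let calcium through.

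The sequences upstream of 5 of these genes are shown because the genes moved or stood together in the values that follow. Grik5 and Gria4 are the members with an entry among the 4 that had the lowest unadjusted p-values with Zfp423, and Gabra2, Gabra4 and Gabrb1 lie near one another on chromosome 5, with 1 protein-coding gene between Gabra2 and Gabra4 and none between Gabra4 and Gabrb1. Each is the stretch of 250 bases before a start site from RefSeq (GRCm38.p6), 5′ to 3′ along the gene, and capitals mark CG dinucleotides.

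Grik5 (chr7:25072370-25072619, minus strand): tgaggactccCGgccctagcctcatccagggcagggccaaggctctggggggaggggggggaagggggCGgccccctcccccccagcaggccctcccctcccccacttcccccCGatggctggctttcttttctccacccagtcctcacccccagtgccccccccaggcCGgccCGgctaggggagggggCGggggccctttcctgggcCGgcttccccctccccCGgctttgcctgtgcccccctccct
Gria4 (chr9:4796235-4796484, minus strand): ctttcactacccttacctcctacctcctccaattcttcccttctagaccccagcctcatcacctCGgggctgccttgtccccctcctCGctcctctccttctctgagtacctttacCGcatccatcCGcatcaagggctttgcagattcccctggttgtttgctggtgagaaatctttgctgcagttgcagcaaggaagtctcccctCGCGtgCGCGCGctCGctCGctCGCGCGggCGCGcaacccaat
Gabra2 (chr5:71095850-71096099, minus strand): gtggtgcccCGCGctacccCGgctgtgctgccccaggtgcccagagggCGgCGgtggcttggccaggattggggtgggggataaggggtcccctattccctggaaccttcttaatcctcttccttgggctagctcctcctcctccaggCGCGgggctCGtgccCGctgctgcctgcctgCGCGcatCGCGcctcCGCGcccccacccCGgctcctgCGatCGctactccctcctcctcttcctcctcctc
Gabra4 (chr5:71658309-71658558, minus strand): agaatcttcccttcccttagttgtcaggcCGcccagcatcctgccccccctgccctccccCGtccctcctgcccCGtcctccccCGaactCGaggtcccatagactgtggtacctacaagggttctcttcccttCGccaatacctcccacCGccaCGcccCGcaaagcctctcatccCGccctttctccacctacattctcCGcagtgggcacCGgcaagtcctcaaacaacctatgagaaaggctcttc
Gabrb1 (chr5:71657671-71657920, plus strand): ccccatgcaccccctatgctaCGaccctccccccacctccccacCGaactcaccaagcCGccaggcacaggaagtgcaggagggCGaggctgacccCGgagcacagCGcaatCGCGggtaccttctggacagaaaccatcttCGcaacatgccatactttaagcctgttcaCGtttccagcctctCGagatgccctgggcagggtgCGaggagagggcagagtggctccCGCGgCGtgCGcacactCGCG

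The stretch of Grik5 held 8 CG dinucleotides, that of Gria4 held 16, those of Gabra2 and Gabrb1 held 18 each and that of Gabra4 held 12. A promoter entry was found by symbol for 32 of the 47 subunits, and their 39 promoters held a median of 9 CG, against 6 over all 32851 promoters of the table. GCACCC, an arm of the inverted repeat described for the zinc fingers of Zfp423, was searched on both strands. It was present in 5 of the 39 promoters, against 13.3% of all, with 2 matches upstream of Gabrb1 and none upstream of Grik5 or Gria4. A match is a string of letters and not a binding site. The start sites of Gabra4 and Gabrb1 lie 387 bases apart on opposite strands, with the first bases of either gene inside the other. The sources differ on whether the libraries kept strand, so reads in that overlap may belong to either gene.

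Values are FPKM, fragments per kilobase of transcript and M (mega) of fragments, which allows levels of different genes to be set side by side. The depth, estimated from the smallest steps between low values, was 40.9 to 82.0 M fragments in 8 libraries but 5.86 M in AstroEGFR*3 and 7.67 M in PT3. A single fragment on 1 kb was worth 0.171 FPKM in AstroEGFR*3 and 0.130 FPKM in PT3, and 0.0122 to 0.0245 FPKM elsewhere, so a low gene could more easily be missed in these libraries. Genes that every cell uses were at times near or at 0 (Gapdh from 0.0106 to 50.1 FPKM, and Hmgcs1 at 0 throughout), so a value of 0 is given here as listed. Zfp423 itself was at 3.25 to 4.30 FPKM in AstroEGFR* and at 15.7, 9.73 and 105 FPKM in AstroEGFR* Zfp423 1 to 3, higher in each batch. AstroEGFR* and PT were grown in different media, with serum and serum-free with growth factors, and the medium and the tumour step cannot be told apart.

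Few of the subunits reached 1 FPKM. Of the 47, 27 were below 1 FPKM in all 10 libraries, of which 3 were listed at 0 throughout, and 20 reached 1 FPKM in at least 1 library. Gabbr1, Gria3 and Grik5 did so in all 10. A library held between 4 and 14 subunits at 1 FPKM or above, with 14 in PT4 and 11 in PT2, while 11174 to 12182 of all features reached that level in each library. PT4 also held the highest value of 19 of the 44 subunits listed above 0 anywhere. In PT4 all 12 markers of the oligodendrocyte lineage were the highest of the 4 PT libraries, with a summed level of 1817 FPKM against 158 to 1444 in the other PT, 110 to 316 in AstroEGFR* and 66.5 to 250 in AstroEGFR* Zfp423 libraries. Sox10 reached 117 FPKM there, while the myelin genes Mog and Mag stayed at or below 0.180 FPKM in all libraries. The part of this difference in the subunit levels was not tested. Of 15 neuronal markers found, 10 were highest in PT4 among PT, with sums of 37.5 to 137 FPKM in PT, 31.1 to 85.2 in AstroEGFR* and 22.2 to 69.8 in AstroEGFR* Zfp423. Rbfox3 was at or below 0.0208 and Snap25 at or below 0.260 FPKM in every library, whereas Tubb3 was at 6.23 to 99.4 FPKM. The highest values were 54.6 FPKM for Nefl (AstroEGFR* Zfp423 3), 46.2 for Nefm and 17.8 for Gad2 (both PT3). They were 12.3 for Stmn2 (AstroEGFR*3), 6.26 for Gad1 (PT2), and 8.76 for Dcx, 5.55 for Elavl3 and 5.82 for Elavl4 (all PT4). In PT4, Stmn2 was at 0.00649 and Gad2 at 0.886 FPKM. In bulk RNA, fewer cells with a transcript and less transcript per cell cannot be told apart.

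**Figure D1:**
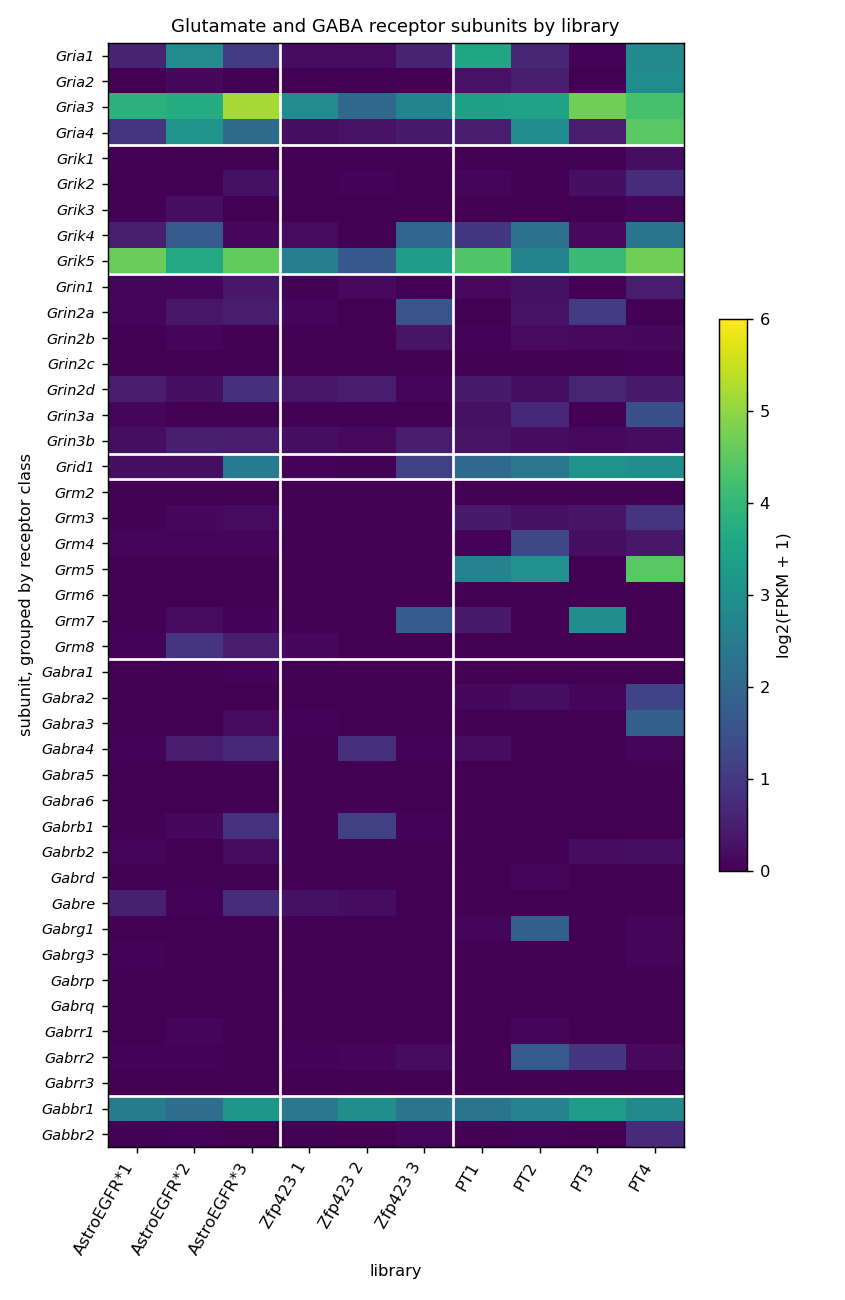
Colour gives log2(FPKM + 1) of 43 subunits (rows, grouped by receptor class) in the 10 libraries (columns: 3 AstroEGFR*, 3 AstroEGFR* Zfp423, 4 PT). Gria3, Grik5 and Gabbr1 are lit in every column, most other rows stay near 0, and PT4 has the most rows at 1 FPKM or above.

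Among AMPA receptor subunits, Gria3 was the most abundant in 8 of the 10 libraries, and all 4 members reached 1 FPKM somewhere. Gria3 stood at 13.6, 12.2 and 35.3 FPKM in AstroEGFR*1 to 3, at 9.79, 10.0, 25.1 and 18.1 FPKM in PT (PT1 to PT4 in order, here and below), and at 6.49, 3.04 and 5.52 FPKM in AstroEGFR* Zfp423 1 to 3. It made up 86.4% to 95.4% of the summed AMPA subunit FPKM in AstroEGFR* Zfp423, 46.2% to 90.7% in AstroEGFR* and 34.7% to 98.3% in PT. In FPKM of Gria3 the 3 Zfp423 libraries lay below all others and those of AstroEGFR* and PT overlapped, while in the share all 3 groups overlapped. Gria4 was at 0.881, 7.69 and 3.34 FPKM in AstroEGFR*, at 0.370, 6.55, 0.399 and 21.3 FPKM in PT, and at 0.170, 0.218 and 0.342 FPKM with Zfp423. Gria1 was at 0.496, 6.46 and 1.04 FPKM in AstroEGFR*, at 10.7, 0.560, 0.0449 and 6.20 FPKM in PT, and at 0.142, 0.137 and 0.523 FPKM with Zfp423. The PT libraries spread widely in both, and PT1 and PT4, from the same astrocyte batch, stood far apart in Gria4. Gria2, the subunit that limits calcium entry, was at 0.0131, 0.0919 and 0 FPKM in AstroEGFR*, at 0.218, 0.423, 0 and 6.54 FPKM in PT, and at 0, 0 and 0.00293 FPKM with Zfp423. It therefore made up 12.6% of the AMPA subunit FPKM in PT4 and at most 2.41% in the other libraries.

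**Figure D2:**
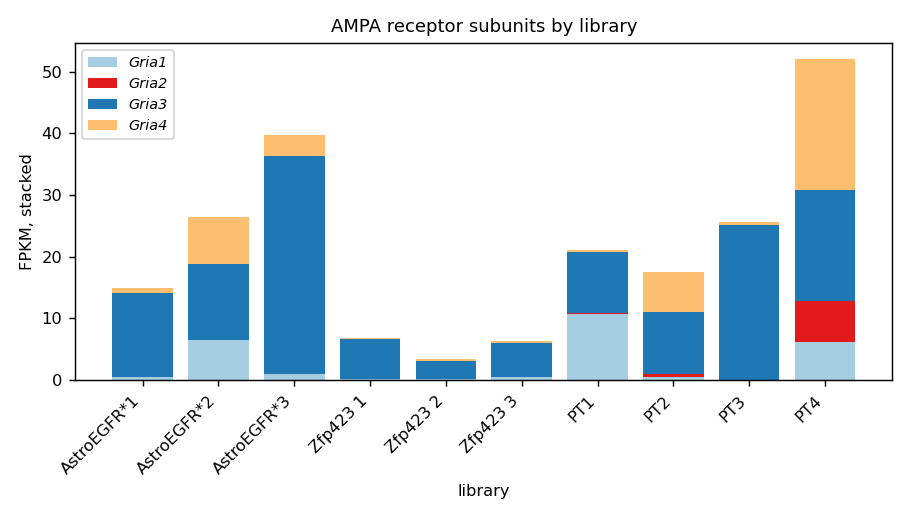
Stacked bars give the FPKM of Gria1 to Gria4 in each of the 10 libraries, from 0. Gria3 is the largest segment in 8 libraries, the Zfp423 bars are the shortest at 3.39 to 6.80 FPKM, and Gria2 is a visible share in PT4 (12.6%).

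Of the kainate receptor subunits, the high-affinity members Grik5 and Grik4 were measured at levels above 1 FPKM, and Grik1, Grik2 and Grik3, with which they assemble into working channels, were at or below 0.705 FPKM in every library. Grik5 was at 23.6, 11.2 and 22.7 FPKM in AstroEGFR*, at 19.7, 5.57, 16.0 and 25.04 FPKM in PT, and at 4.94, 2.15 and 8.87 FPKM with Zfp423. Every Zfp423 library was below every AstroEGFR* library, whereas PT and AstroEGFR* overlapped. Grik4 was at 0.429, 2.27 and 0.0924 FPKM in AstroEGFR*, at 0.975, 3.71, 0.106 and 4.02 FPKM in PT, and at 0.133, 0.0169 and 2.87 FPKM with Zfp423, and the 3 groups overlapped.

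NMDA receptor subunits were low throughout. Grin1, without which no NMDA receptor forms, was at or below 0.372 FPKM in every library, and 2 of the 7 members reached 1 FPKM, each in few libraries. These were Grin2a at 1.02 FPKM in PT3 and 1.94 FPKM in AstroEGFR* Zfp423 3, and Grin3a at 1.76 FPKM in PT4. The delta subunits bind glycine, D-serine and cerebellin rather than glutamate. Of these, Grid1 was at 0.188, 0.172 and 4.56 FPKM in AstroEGFR*, at 3.15, 4.13, 7.30 and 6.77 FPKM in PT, and at 0.0453, 0.0172 and 1.21 FPKM with Zfp423. Each PT library was above the AstroEGFR* library of its own batch, and the groups overlapped through AstroEGFR*3 alone.

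Metabotropic glutamate receptors were near 0 in AstroEGFR*, where the 8 members summed to 0.194 to 1.23 FPKM, and summed to 6.13 to 22.4 FPKM in PT. Different members made up the sum in different PT libraries. Grm5, which couples to phospholipase C and is the main metabotropic receptor of young astrocytes, was at 0, 0.00583 and 0 FPKM in AstroEGFR*, at 5.35, 7.19, 0 and 21.1 FPKM in PT, and at 0, 0.00452 and 0.0118 FPKM with Zfp423. It was thus high in PT1, PT2 and PT4 and listed at 0 in PT3, where a single fragment on 1 kb was worth 0.130 FPKM. Grm7, a presynaptic receptor that lowers cyclic AMP, was at 0.0164, 0.132 and 0.0381 FPKM in AstroEGFR*, at 0.350, 0, 6.97 and 0.00563 FPKM in PT, and at 0.0184, 0.00466 and 2.35 FPKM with Zfp423. PT3 and AstroEGFR* Zfp423 3 were the libraries above 1 FPKM. Of the other 6 members, Grm4 reached 1.46 FPKM in PT2 and the rest were at or below 0.915 FPKM.

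Among the 19 GABA-A subunits, no alpha or gamma subunit exceeded 2.65 FPKM. Alpha subunits above 1 FPKM were Gabra2 (1.303 FPKM) and Gabra3 (2.58 FPKM), both in PT4, and of the gamma subunits Gabrg1 reached 2.65 FPKM in PT2. Gabrr2 reached 2.27 FPKM in PT2, and Gabrb1 1.21 FPKM in AstroEGFR* Zfp423 2. Gabra2 and Gabrg1, neighbours on chromosome 5, were listed at 0 in all 6 astrocyte libraries. Gabra2 was at 0.0848, 0.174, 0.0531 and 1.303 FPKM in the 4 PT libraries, and Gabrg1 at 0.0557, 2.65, 0 and 0.0515 FPKM, so that their highest PT libraries differed. Further along the same chromosome, Gabra4 and Gabrb1, the genes with overlapping starts, had their highest levels in the same libraries. Gabra4 was at 0.580 and 0.747 FPKM in AstroEGFR*3 and AstroEGFR* Zfp423 2, where Gabrb1 was at 0.827 and 1.21 FPKM. Gabrb1 was listed at 0 in all 4 PT libraries, in which Gabra4 was at 0.146 FPKM or less. The summed level of 9 fibroblast and meningeal markers was 6678 and 7963 FPKM in these libraries, 5231 FPKM in AstroEGFR* Zfp423 1, where Gabrb1 was at 0.0327 FPKM, and 51.5 to 738 FPKM in the other 7, and its part was not tested. These neighbours were singled out after their values were seen.

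Gabbr1, the ligand-binding GABA-B subunit, was at 4.72, 3.44 and 8.11 FPKM in AstroEGFR*, at 3.94, 5.28, 8.88 and 6.15 FPKM in PT, and at 4.18, 6.93 and 3.99 FPKM with Zfp423. The 3 groups overlapped, and its SD on the log2 scale (0.53, 0.42 and 0.37 in AstroEGFR*, PT and Zfp423 libraries) was below those of Gria3 and Grik5 in each group. Its partner Gabbr2, which carries the G protein coupling, was at 0.646 FPKM in PT4 and at or below 0.0715 FPKM elsewhere.

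**Figure D3:**
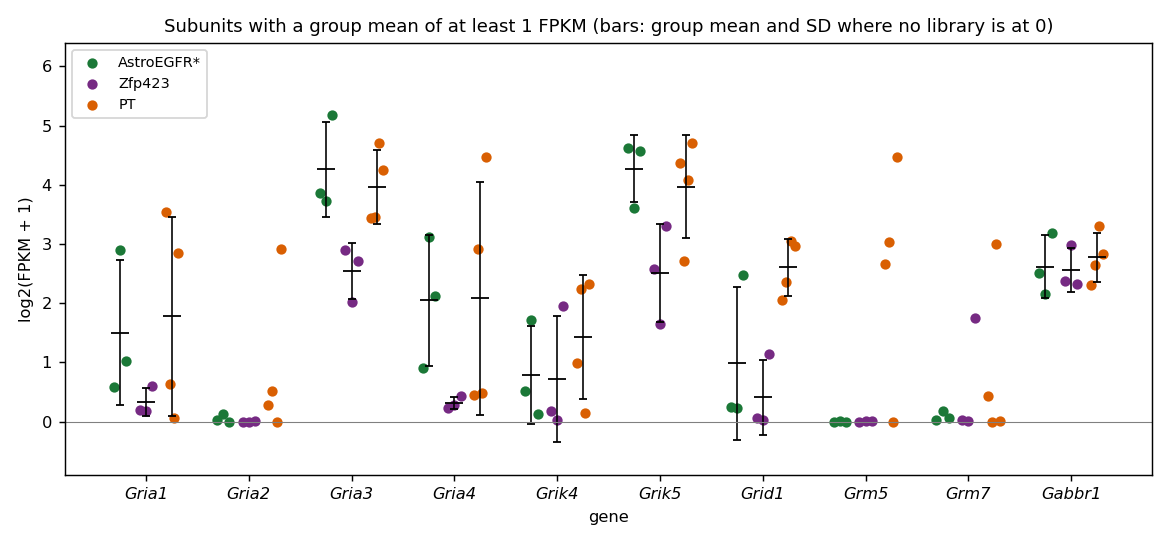
Points give log2(FPKM + 1) of single libraries for 10 subunits that averaged 1 FPKM or more in a group (green AstroEGFR*, n = 3, purple AstroEGFR* Zfp423, n = 3, orange PT, n = 4). Black bars give the group mean and SD where no library is listed at 0, and the purple points of Gria3 and Grik5 lie below the green ones.

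The comparison of PT with AstroEGFR* asked which receptor subunits accompany the step from tumorigenic astrocytes to glioma propagating cells. No subunit passed the test. Grm5 and Grid1 had the lowest p-values, both higher in PT, while the abundant Gria3, Grik5 and Gabbr1 differed by less than the spread between libraries. On log2(FPKM + 1), limma was run on the 12261 features that averaged 1 FPKM or more across the 7 libraries, with Benjamini-Hochberg adjustment (threshold 0.05). Differences below are on this scale, which understates those of low genes. Of all features 1.24% passed, and of the subunits 0 of the 11 that were tested, the other 36 being too low. At an unadjusted p below 0.05 there were 2 of 11, both higher in PT, against 13.6% of all features (5.88% higher). These were Grm5 and Grid1, and the direction of Grm5 was fixed by the filter, which it passed through PT alone.

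Grm5 was 2.54 higher on the log2 scale in PT (SE 0.93, limma, unadjusted p = 0.0268, Benjamini-Hochberg adjusted p = 0.294). It was higher in 3 of 4 PT libraries than in all AstroEGFR*. Without PT3, where it is listed at 0, the difference was 3.39 and it was the single subunit to pass (limma, adjusted p = 0.0445). That fit leaves out the 1 PT library that went against the difference. Without both low-depth libraries, PT3 and AstroEGFR*3, the difference was again 3.39 and did not pass (limma, adjusted p = 0.134). Over all alternatives its adjusted p ranged from 0.0445 to 0.567. Grid1 was 1.62 higher (SE 0.61, limma, unadjusted p = 0.0290, adjusted p = 0.304), and higher in 4 of 4 PT libraries than in the AstroEGFR* of the same batch. With the astrocyte batch as a block its difference was 1.71 (limma, adjusted p = 0.0898), in a fit where 3.87% of all features passed, and without AstroEGFR*3 it was 2.37 (limma, adjusted p = 0.0856). Over all alternatives its adjusted p ranged from 0.0856 to 0.625.

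Gria3 averaged 4.26 ± 0.80 in the 3 AstroEGFR* libraries and 3.96 ± 0.63 in the 4 PT libraries (mean ± SD on the log2 scale), Grik5 at 4.27 ± 0.57 and 3.97 ± 0.87, and Gabbr1 at 2.62 ± 0.53 and 2.77 ± 0.42. These differences, of -0.29 (SE 0.47), -0.30 (SE 0.51) and 0.16 (SE 0.36), had limma adjusted p-values of 0.849 to 0.903. An exact two-sided permutation test of 3 against 4 libraries, whose smallest p is 0.0286, gave 0.600 for Gria3 and 0.686 for Grik5. The differences of Gria1 (0.27, SE 0.97) and Gria4 (0.03, SE 1.06) had errors of about 1 log2 unit. Those of Gria2 (0.88, SE 0.72), Grik4 (0.64, SE 0.66) and Grm7 (0.77, SE 0.77) were smaller than 1.5 times their errors, with the highest values in PT4 for Gria2 and Grik4 and in PT3 for Grm7. That of Grik4 ranged from 0.312 without AstroEGFR*3 and 0.338 without PT4 to 1.10 without AstroEGFR*2. In all, 8 of the 11 were higher and 3 lower in PT, with a median difference of 0.27 against 0.03 over all features. Of the 11, 4 (Gria2, Grik4, Grm5 and Grm7) passed the filter on low values through PT alone, so this count and median favour PT by construction. The median was 0.0249 without PT4, with 5 higher and 5 lower of 10 tested, and 0.820 without AstroEGFR*2, and a pseudocount of 0.1 gave 6 higher and 5 lower.

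Markers of other cells also differed between AstroEGFR* and PT. The fibroblast and meningeal sum was lower in each PT library than in the AstroEGFR* of its batch, at 131 and 51.5 FPKM in PT1 and PT4 against 738, at 88.2 in PT2 against 677, and at 736 in PT3 against 6678. The astrocyte sum was 2834, 1280, 456 and 3464 FPKM in PT against 1523 to 1888 FPKM in AstroEGFR*, higher in PT1 and PT4 and lower in PT2 and PT3. The neural progenitor sum, mostly Vim, was lower in each PT library than in the AstroEGFR* of its batch. It was 4602 and 3924 FPKM in PT1 and PT4 against 5546, 1312 in PT2 against 4567, and 2500 in PT3 against 3432. The part of these markers in the differences of subunits and of Cacng5 below was not tested.

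The libraries of the groups did not overlap for 6 of the 47 subunits (12.8%), against 10.4% of all 23230 features listed (4.22% higher and 6.19% lower in PT). None of the 6 passed the filter, and of the 11 subunits tested 0 were without overlap, against 14.8% of the features tested. PT was above AstroEGFR* in Gabra2, Grin2c and Grm3, and below in Gabrb1, Gabre and Grm8. All 6 were at or below 1.303 FPKM in these 7 libraries. Grm3, a metabotropic receptor of glia, was at 0.0325, 0.0953 and 0.137 FPKM in AstroEGFR* and at 0.360, 0.204, 0.244 and 0.885 FPKM in PT. Gabre, the epsilon subunit, was at 0.450, 0.0367 and 0.704 FPKM in AstroEGFR* and at 0, 0, 0 and 0.00860 FPKM in PT. Grm3 and Gabre averaged below 1 FPKM in every group and were singled out after their values were seen.

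Receptor accessory proteins were counted from lists of 67 pathway genes, all found, of which 42 were tested and 1 passed, against 1.24% of all features. This was Cacng5, an auxiliary subunit of AMPA receptors of the TARP family, at 0.156, 0.105 and 0.298 FPKM in AstroEGFR* and at 75.8, 47.9, 77.3 and 93.5 FPKM in PT. Cacng5 rose by 5.94 on the log2 scale (SE 0.27, limma, Benjamini-Hochberg adjusted p = 0.000449). The groups lay far apart, and in each PT library its level was above that of any of the 47 receptor subunits. With Zfp423 it was at 0.835, 0 and 1.82 FPKM. Of the 14 auxiliary subunits 9 were tested, 8 of them higher and 1 lower in PT, with a median difference of 1.08. Of these 9, 5 (Cacng4, Cacng5, Neto1, Shisa6 and Shisa9) averaged 1 FPKM or more in PT alone, so the filter fixed their direction and this count and median favour PT by construction. Cacng7, of the same subfamily as Cacng5, was at 35.01, 19.9 and 55.4 FPKM in AstroEGFR* and at 48.3, 21.7, 74.9 and 62.5 FPKM in PT, a difference of 0.47 (SE 0.50, limma, adjusted p = 0.755). It was 0.0966 without AstroEGFR*2 and 0.830 without PT2. Neto2, an auxiliary subunit of kainate receptors, was at 15.7 to 40.8 FPKM in AstroEGFR* and 16.3 to 43.2 FPKM in PT. Shisa6, which keeps AMPA receptors at the synapse, was singled out after its values were seen. It was at 0.276, 0.195 and 0.624 FPKM in AstroEGFR* and at 3.77, 4.21, 1.57 and 7.50 FPKM in PT, without overlap (difference 1.84, SE 0.44, limma, adjusted p = 0.112).

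**Figure D4:**
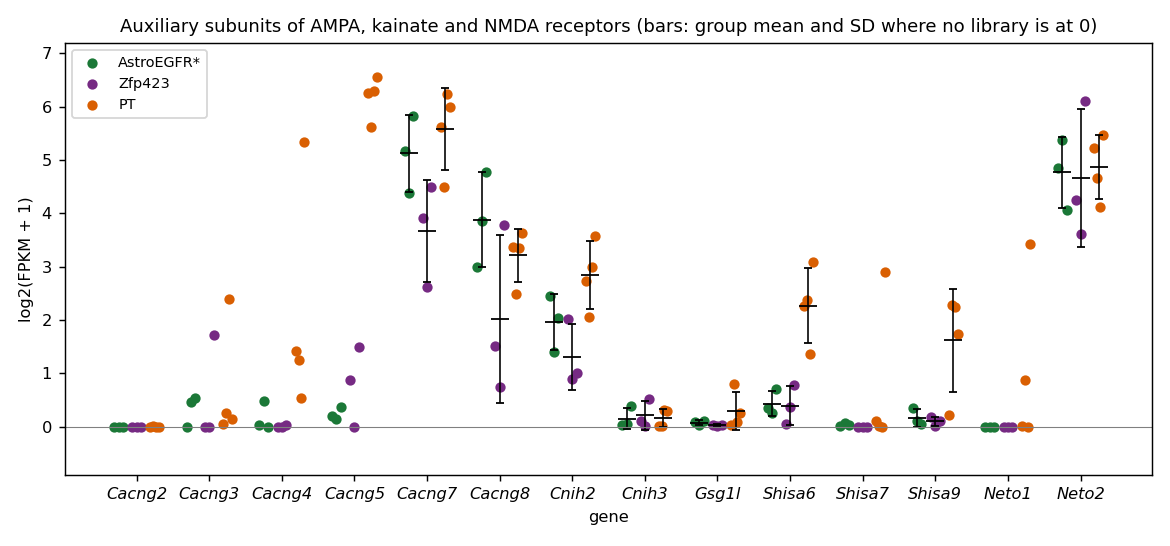
Points give log2(FPKM + 1) of single libraries for the 14 auxiliary subunits of AMPA, kainate and NMDA receptors (green AstroEGFR*, n = 3, purple AstroEGFR* Zfp423, n = 3, orange PT, n = 4), with group mean and SD as black bars where no library is listed at 0. The orange points of Cacng5, at 47.9 to 93.5 FPKM, stand apart from the rest, and Cacng7 and Neto2 are high in all groups.

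Among 14 glutamate receptor scaffolds, 9 were tested, 4 higher and 5 lower in PT, and none passed. Dlg1 and Dlg4, which anchor receptors at membranes, were at 32.8 to 66.8 and 16.8 to 48.9 FPKM over the 7 libraries, and Homer3, which tethers Grm5, at 12.7 to 21.1 FPKM. Shank3, a postsynaptic scaffold singled out after its values were seen and tested through its PT level alone, was at 0.4002, 0.0254 and 0.525 FPKM in AstroEGFR* and at 2.09, 6.09, 2.52 and 3.04 FPKM in PT (difference 1.69, SE 0.39, limma, adjusted p = 0.105). Of 9 GABA receptor scaffolds and auxiliary proteins 7 were tested, 6 higher and 1 lower, with Gphn (gephyrin) at 6.99 to 32.3 FPKM in AstroEGFR* and 17.7 to 45.5 FPKM in PT. Of 9 plasma membrane transporters 6 were tested, 4 higher and 2 lower, with Slc1a3, the glial glutamate transporter, at 6.02, 24.96 and 48.2 FPKM in AstroEGFR* and at 117, 296, 2.20 and 170 FPKM in PT. The 9 tested enzymes of glutamate and GABA metabolism were split into 5 higher and 4 lower, and Slc12a2, the chloride importer, and Glrb, the glycine receptor beta subunit, were higher. Of these lists none but the auxiliary subunits had a member that passed. Over all 42 genes tested, 9 passed the filter through PT alone and 1 through AstroEGFR* alone. The 4 vesicular transporters, which load glutamate or GABA for release, were all too low to test, at or below 0.388 FPKM in every library.

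The comparison of AstroEGFR* with and without Zfp423, within astrocyte batches, asked how the subunits stand when Zfp423 is overexpressed. No subunit passed the test, and no feature did. The abundant subunits Grik5 and Gria3, and the less abundant Gria4, were lower with Zfp423 in each of the 3 batches. With limma and the batch as a block, 0% of 12366 features passed at an adjusted p below 0.05, against 7.38% at an unadjusted p below 0.05 (3.3% higher and 4.08% lower). Without the block 2 features passed (0.0162%), neither a subunit. Of the 7 subunits tested all were lower and 4 had an unadjusted p below 0.05. With 3 pairs, no permutation test could reach 0.05.

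Grik5 differed by -2.05, -1.96 and -1.27 on the log2 scale in batches 1 to 3, a mean of -1.76 (SE 0.28, limma, unadjusted p = 0.00289, adjusted p = 0.628). Gria3 differed by -0.96, -1.71 and -2.48, a mean of -1.72 (SE 0.38, limma, unadjusted p = 0.00922, adjusted p = 0.628). Both stood at 1 FPKM or above on average in both groups, and in both the Zfp423 libraries lay below all AstroEGFR* libraries. Gria4 differed by -0.69, -2.83 and -1.69, a mean of -1.74 (SE 0.58, limma, unadjusted p = 0.0385, adjusted p = 0.628). Gria1 (-1.17, SE 0.68), Grid1 (-0.57, SE 0.53) and Gabbr1 (-0.06, SE 0.43) had larger errors relative to their size, and Gabbr1 was higher in batch 2. The median over the 7 was -1.72, against 0.02 over all features. Gria1, Gria4 and Grid1 passed the filter through AstroEGFR* alone, so the direction of those 3 was fixed by the filter.

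Over all 47 subunits, 10 (21.3%) were lower in all 3 batches and 0 were higher in all 3, where 10.9% of all 23230 features listed were lower and 10.2% higher in all 3. Of the 7 tested 6 were lower in all 3, against 15.2% of the features tested (16.3% higher), and for 3 of these the filter fixed the direction on average. Among the 10 were Gabrb2, Gria1, Gria3, Gria4, Grid1, Grik5, Grin3b, Grm3 and Grm4. In batch 3, 16 of the 47 were listed at 0 in both libraries. Grik4 and Grm7 were higher in batch 3, by 1.82 and 1.69, and Grik4 was lower in batches 1 and 2.

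**Figure D5:**
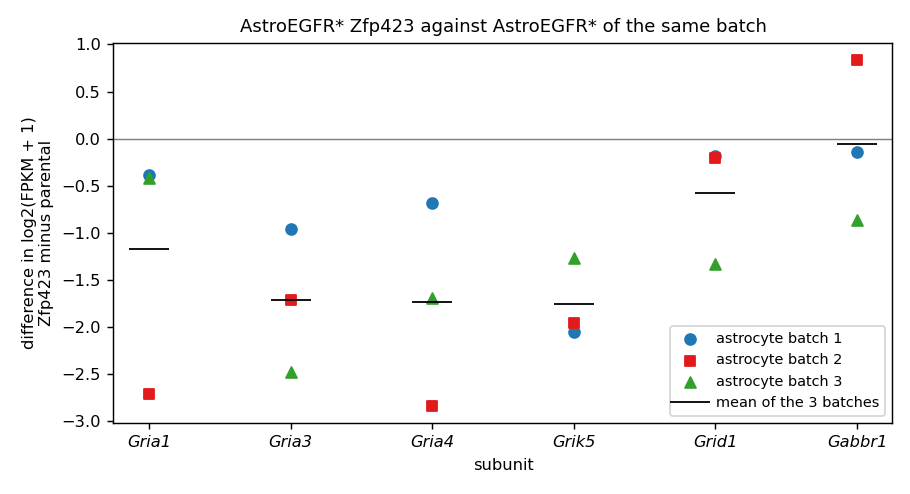
Points give the difference in log2(FPKM + 1) between AstroEGFR* Zfp423 and AstroEGFR* of the same batch (blue circle batch 1, red square batch 2, green triangle batch 3) for 6 of the 7 subunits tested, and black lines the mean of the 3. Every point lies below 0 except that of Gabbr1 in batch 2.

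The AstroEGFR* Zfp423 libraries also differed in markers of other cells. All 11 markers of microglia and macrophages were higher in AstroEGFR* Zfp423 1 and 2 than in the AstroEGFR* of the same batch, with summed levels of 1608 and 1014 FPKM against 8.51 to 41.6 FPKM in AstroEGFR* and 2.66 to 36.7 FPKM in PT. In AstroEGFR* Zfp423 3 the sum was 1.28 FPKM, with Aif1 and C1qa listed at 0. All 11 astrocyte markers were lower in AstroEGFR* Zfp423 2, with a sum of 84.8 FPKM against 1888 in AstroEGFR*2. In batch 1, 10 of the 11 were lower and the sum was 815 against 1523 FPKM, and in batch 3, 6 were lower and the sum was 2948 against 1554 FPKM. Of the 9 fibroblast and meningeal markers 7 were higher with Zfp423 in batch 1 (5231 against 738 FPKM in sum) and 8 in batch 2 (7963 against 677 FPKM), and all 9 were lower in batch 3 (365 against 6678 FPKM). Of the 15 neuronal markers 14 were lower in batch 1 and 9 in batch 2, with 1 higher there, and in batch 3, 5 were lower and 7 higher. Of the 8 neural progenitor markers 7, 8 and 2 were lower in batches 1 to 3. The oligodendrocyte lineage sum was 71.1, 66.5 and 250 FPKM with Zfp423 against 316, 171 and 110 FPKM, with Olig1 at 14.7, 0 and 94.9 FPKM against 176, 81.8 and 45.4 FPKM. By their sums these lists all moved one way in batches 1 and 2 and the other way in batch 3. Libraries were paired by the batch numbers of the labels. Single genes carried much of some sums in batch 3. Fabp7 went from 393 to 1906 FPKM among the astrocyte markers, and Vim from 3187 to 4055 FPKM among the progenitor markers. Of the neuronal markers Nefl went from 0 to 54.6 FPKM, while Tubb3 fell from 19.1 to 6.23 FPKM. Grik5, Gria3 and Gria4 were lower in all 3 batches, and the part of these markers in the differences was not tested. AstroEGFR* Zfp423 3 alone differed from the 3 AstroEGFR* libraries by -1.62 for Gria4, -1.55 for Gria3 and -0.96 for Grik5 (limma, no block). This fit has 1 library in a group and was chosen after seeing the data, so it cannot tell the part of the markers. The value of Grik5 is smaller than that over the 3 batches by more than 1.5 times. Grid1 was 0.16 higher in AstroEGFR* Zfp423 3 than in the 3 AstroEGFR* libraries, and differed by -1.33 from the AstroEGFR* of its own batch.

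Of the 67 pathway genes, 34 were tested with Zfp423, 11 higher and 23 lower, and 0 passed. At an unadjusted p below 0.05 there were 1 higher and 4 lower, against the 3.3% higher and 4.08% lower of all features. All 4 of the auxiliary subunits tested were lower, with a median difference of -1.05. Cacng7 was at 14.0, 5.12 and 21.5 FPKM with Zfp423, below the AstroEGFR* library of the same batch in each (-1.45, SE 0.23, limma, unadjusted p = 0.00268, adjusted p = 0.628). Cacng8, the main auxiliary AMPA subunit of the hippocampus, singled out after its values were seen, was at 7.005, 13.5 and 26.4 FPKM in AstroEGFR* and at 1.86, 0.681 and 12.7 FPKM with Zfp423 (-1.86, SE 0.50, limma, unadjusted p = 0.0192, adjusted p = 0.628). AstroEGFR* Zfp423 3 differed from the AstroEGFR* of its own batch by -1.33 for Cacng7 and -0.99 for Cacng8, and from the mean of the 3 AstroEGFR* libraries by -0.63 and -0.10. Of the 7 scaffolds of glutamate receptors tested 2 were higher and 5 lower, and of the 8 of GABA receptors 4 were higher and 4 lower. Both comparisons use the same AstroEGFR* libraries, so the directions of a subunit in PT and with Zfp423 are not independent.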

How the data were processed

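RNAseq values of 10 libraries were used. The values, deposited by the authors as 1 matrix, are FPKM of 23230 features listed by gene symbol, and the submitters' processing notes name TopHat 1.3, Cuffnorm and mm9. The study tested differences with CuffDiff, which needs reads. The labels name a TruSeq RNA kit where the paper names ribosomal depletion and single-stranded kits, and the second vector is lentiviral in the labels but retroviral in the paper. The annotation is not given in the sources used here.

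Features that averaged 1 FPKM or more in the libraries compared were fitted on log2(FPKM + 1) with limma 3.58.1 in R 4.3.3 (linear model, empirical Bayes with trend). Benjamini-Hochberg adjustment was made over all features tested. PT and AstroEGFR* were compared without pairing, and AstroEGFR* with and without Zfp423 with the astrocyte batch as a block, since the labels give both libraries of a batch the same number. As a check of pairing, deviations from the group means over 12476 features correlated at 0.346 to 0.499 between PT and the AstroEGFR* of the same batch, and at 0.241, -0.111 and -0.262 between AstroEGFR* Zfp423 and AstroEGFR* of batches 1, 2 and 3. P-values measure the spread between these cultures. The fits were tested on simulated data. Alternatives were a pseudocount of 0.1, a lower or no filter, median-ratio scaling, no trend, 1 fit of all libraries, the other choice of block, PT1 and PT4 averaged, and libraries left out.

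Subunits that averaged 1 FPKM in any group were given in every library and the others by counts and ranges, 4 members enter the counts but are not reported singly here, and pathway genes were named if they passed or were among the 3 highest of their list. Exceptions are marked. The members and lists were chosen with earlier results of these data known. Marker lists are given beside results, and the summed levels over the 10 libraries were 51.5 to 7963 FPKM for fibroblasts and meninges, 0.426 to 14.9 for endothelium and 1312 to 5546 for neural progenitors. Cdkn2a was at 3.96 to 130 FPKM, which does not check its deletion, since the values are per gene and not per exon. Depth is an estimate from the lowest steps of FPKM over single-transcript genes and covers counting only. No genome coordinates of the matrix were used. Promoters were matched by symbol to RefSeq (GRCm38.p6), and 32 of 47 subunits matched. Permutation tests went through all regroupings of the libraries in Python 3.11.15 with numpy 2.4.6 and pandas 2.3.3, and figures used matplotlib 3.10.9.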

Additional observations from a re-analysis of the deposited data

Results flagged for a closer look

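Grm7 in PT3 stood apart from the other PT libraries. On log2(FPKM + 1) its gap to the next library was 0.856 of the whole range of the 4 PT libraries, above Dixon's critical value for 4 samples. The FPKM were 0.350, 0, 6.97 and 0.00563 in PT1 to PT4. This was 1 of 15 genes looked at in this way, and chance gives such a gap in about 5% of groups. PT3 is a library of low depth (7.67 M fragments by estimate), in which a single fragment on 1 kb was worth 0.130 FPKM. AstroEGFR* Zfp423 3, at 2.35 FPKM, was the other library above 1 FPKM.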

How the results depend on the processing

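The subunits called numbered 0 in both comparisons under every alternative except without PT3, where Grm5 made it 1, so that the range without each library in turn was 0 to 1 for PT and 0 to 0 for Zfp423. The features called for PT (152) changed with 1 fit of all 10 libraries (82), with PT1 and PT4 averaged (61), without the low-depth AstroEGFR*3 and PT3 (8), and without each library in turn (7 to 123). For Zfp423 (0) they numbered 0 to 51 without each batch in turn, the 51 without batch 2, and 12 with AstroEGFR* Zfp423 3 alone, an alternative chosen after seeing the data, under which Grid1 was at 0.16 (-1.33 against its own batch).

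The astrocyte batch as a replicate block gave 475 features for PT, and no replicate block gave 2 for Zfp423. The block changed no call of a subunit, with Grid1 at 1.71 and Grm5 at 2.33 in PT. PT and AstroEGFR* of the same batch deviated together in all 4 pairs. AstroEGFR* Zfp423 2 and 3 did not do so with their own batch and correlated best with AstroEGFR*3 and AstroEGFR*2, and Zfp423 itself was at 9.73 and 105 FPKM in them. The differences by batch rest on the labels' numbers.

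Among the subunits in PT, differences near 0 turned sign. A pseudocount of 0.1 gave -0.0438 for Gria1 and -0.31 for Gria4, and averaging PT1 and PT4 gave -0.202 and -0.0937. Without each library in turn, the ranges were -0.0770 to 0.441 for Gabbr1, -0.32 to 0.97 for Gria1, -0.56 to 0.17 for Gria3, -0.76 to 0.58 for Gria4 and -0.63 to 0.12 for Grik5. Grik4 kept its direction at 0.312 to 1.10. A pseudocount of 0.1 raised the differences of low genes, to 4.89 for Grm5, 2.85 for Grid1, 2.15 for Gria2, 1.46 for Grm7 and 1.13 for Grik4, with no call. With Zfp423 the range of Gabbr1 was -0.505 to 0.346. The cause was not tested. Depth limits what can be said of low subunits in AstroEGFR*3 and PT3.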
